A study of Homo sapiens with 8 samples.

Results

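Translational efficiency (TE) was compared between MDA-MB-231 cells given an siRNA against ADAR1 and the same cells given a control siRNA. MDA-MB-231 is a long-established human line derived from a triple-negative breast tumour. TE is the level of ribosome-protected fragments (footprints) of a gene relative to the level of its RNA, and a TE change is the footprint change less the RNA change. The genes described are those with a mean estimated count of 50 or more in both the 4 Input and the 4 Ribo-seq libraries, which gave 9737 of the 19892 genes in the table. They are called members below. Each siRNA had 2 Input libraries, made from longer RNA fragments, and 2 Ribo-seq libraries, made from footprint-sized fragments, 8 in all. The labels used here give neither the siRNA sequences, nor the time after transfection, nor a ribonuclease. They also do not tell whether replicates came from separate cultures. P-values below therefore reflect the spread of these libraries alone, and that spread may be technical.

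Ribosome profiling counts the messenger RNA fragments that translating ribosomes shield, so that footprints divided by RNA report how many ribosomes an average transcript of a gene carries. ADAR1 is the enzyme, encoded by ADAR, that deaminates adenosines of double-stranded RNA to inosines. It is known for keeping the cell's own double-stranded RNA from the sensors IFIH1 and EIF2AK2, the latter a kinase that can slow initiation by phosphorylating the factor eIF2. A TE change that opposes an RNA change and offsets it at the footprints is commonly called buffering. Where RNA moves one way and footprints the other, the TE change is larger than a full offset.

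Library totals ran from 15732757 to 17153716 estimated counts for Input and from 10492223 to 14875465 for Ribo-seq, and members took 95.9% to 98.0% of them. All values are relative to the library, so a change common to all transcripts would not appear. Bulk cultures were measured, in which fewer cells of a type and less RNA per cell cannot be told apart. Of the basal and mesenchymal markers, VIM (4441 to 4694 TPM), CD44 and AXL were abundant in all 4 Input libraries. ZEB1 stood at 51.7 to 65.65 TPM there, and the basal keratins KRT5 and KRT14 at 0.264 TPM or less. PTPRC, CD3E, VWF, CDH5 and ESR1 stayed at 0.377 TPM or less in Input. The immune list's CD14 stood at 0.832 to 1.91 TPM and its CD68 at 179 to 232 TPM. PECAM1 and KDR of the endothelial list stood at 2.58 to 5.81 TPM. The summed TPM of the 7 luminal epithelial markers was 1512 to 1775 in Input, and in Ribo-seq it was 1060 and 1289 with control siRNA against 543 and 807 with ADAR1 siRNA. Keratins KRT8, KRT18 and KRT19 made up most of it, and their part in the results below was not tested.

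The targeted gene was low in all ADAR1 siRNA libraries. ADAR stood at 106 and 110 TPM in control Input and at 14.8 and 30.6 TPM in ADAR1 siRNA Input, with 19.1 and 20.3 TPM in control Ribo-seq and 1.55 and 8.41 TPM in ADAR1 siRNA Ribo-seq. Groups did not overlap in either assay, and replicate 1 of the ADAR1 siRNA was the lower in both. The authors' deposited TE of ADAR was 0.180 and 0.184 with control siRNA and 0.105 and 0.275 with ADAR1 siRNA, so the ADAR1 siRNA values lay on both sides of the controls. The log2 TE change of ADAR was 0.25 ± 0.68 (SE; edgeR quasi-likelihood test, adjusted p = 0.867), a value that turned negative under some settings given in the closing section.

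TE changes were wide but few passed the test. After adjustment over the 12953 genes fitted, edgeR called 2 genes higher (0.0154%) and 4 lower (0.0309%), of which 1 and 4 were members. Among them TMEM132A rose, and H1-2, TRAF6 and GTF2H2C_2 fell. A further 96 members shared an adjusted p of 0.0534, just above the threshold of 0.05. Of these, 72 were higher and 24 lower. At an adjusted p under 0.10 there were 623 members higher and 494 lower. The same test without adjustment gave p under 0.05 for 1485 members higher (15.3%) and 1144 lower (11.7%). These shares are the background for the gene groups below, which were not matched for abundance. In the quintile of lowest mean count 11.2% were higher and 4.62% lower, and in that of highest mean count 17.7% and 18.6%. Of the 9737 members, DESeq2 called 484 higher and 490 lower, and limma-voom with quality weights 328 and 312. These counts over all members are the background for the DESeq2 and limma-voom calls in the gene groups below. Single libraries decided the edgeR count. It was 1080 higher and 1091 lower with replicate 2 of the ADAR1 siRNA Ribo-seq left out, 346 and 140 with replicate 1 left out, and without any other single library 0 higher and 0 or 1 lower. Of 12 fits that left out 1 library or both assays of 1 replicate, TMEM132A, H1-2 and TRAF6 each passed in 4 and GTF2H2C_2 in 10, with adjusted p of 0.00193 to 0.741 for the first 3 and 0.00132 to 0.125 for the last. Their log2 TE changes moved little in these fits: 1.09 to 1.23 for TMEM132A, -1.44 to -1.23 for H1-2 and -1.74 to -1.29 for TRAF6.

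Over all members the median log2 TE change was 0.07, with quartiles at -0.23 and 0.36. Footprint changes spread more than RNA changes, with SDs over members of 0.425 and 0.264 on the log2 scale. The SD of the TE difference between single replicates, on log2 CPM, was 0.296 for the control pair and 0.367 for the ADAR1 siRNA pair. The SD of the fitted TE change was 0.456. That change sets 2 replicates against 2 in the count model, so its SD and those of the pairs are unlike measures. In the separate test of each assay, RNA passed for 30 members (0.253% of all genes tested in Input were called). Footprints passed for 397 members (3.54% of all genes tested in Ribo-seq). Each count disregards the result of the other assay. Among the 1485 members with a higher TE at unadjusted p under 0.05, the log2 footprint change was at least 2 times the RNA change in size in 839 (56.5%) and the reverse held in 197 (13.3%). Among the 1144 lower ones these numbers were 824 (72.0%) and 57 (4.98%). Both sides had a size of at least 0.25 and opposite signs in 356 of the higher and 145 of the lower members, some of which are also in the counts before.

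**Figure D1:**
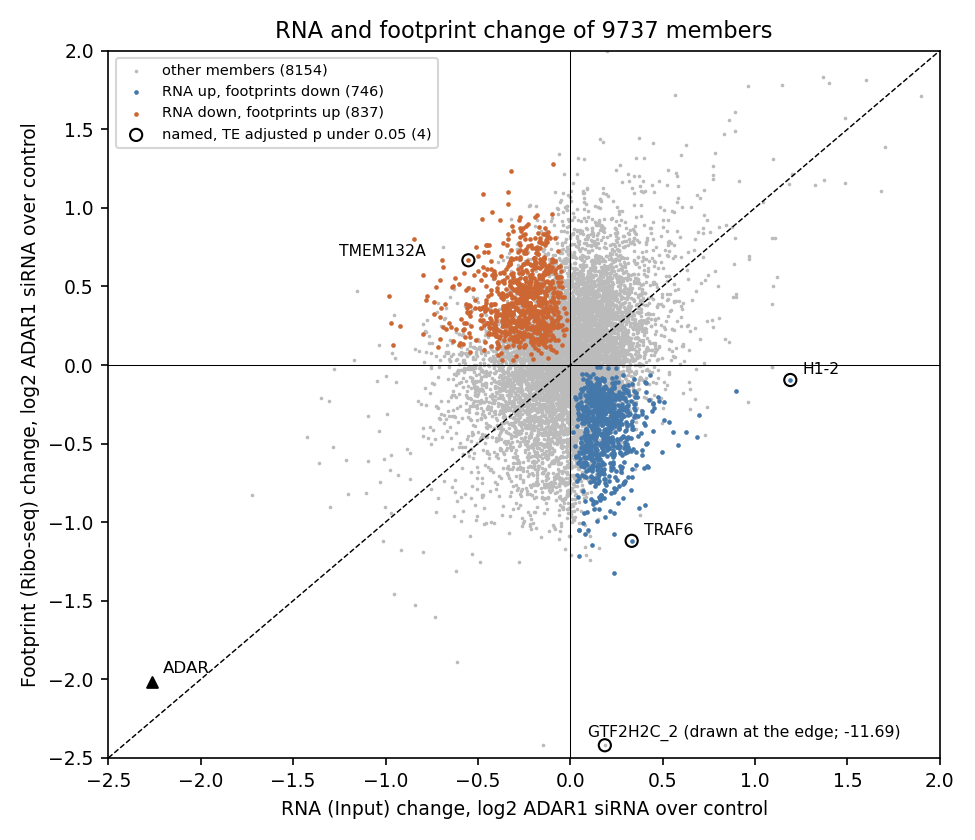
Log2 change of RNA (x axis, Input) against log2 change of footprints (y axis, Ribo-seq) with ADAR1 siRNA, 1 point per member. Blue and orange points are members whose libraries do not overlap in either assay and that moved in opposite directions (746 and 837), circles mark 4 of the 5 members whose TE change passed the test, the triangle is ADAR, and the dashed line marks no TE change. Members beyond the drawn footprint range are placed at its edge.

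TMEM132A (chr11:60924460-60937159, GRCh38.p14) encodes a single-pass transmembrane protein. Its Input level was 25.5 and 25.9 TPM with control siRNA and 17.2 and 17.7 TPM with ADAR1 siRNA, while its Ribo-seq level was 6.47 and 6.92 TPM with control and 9.15 and 10.4 TPM with ADAR1 siRNA. RNA was lower and footprints higher in both ADAR1 siRNA replicates, with no overlap. Deposited TE went from 0.253 and 0.267 to 0.532 and 0.589. The log2 TE change was 1.22 ± 0.16 (SE; edgeR adjusted p = 0.0447), made up of -0.55 in RNA and 0.67 in footprints.

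H1-2 (chr6:26055740-26056470) encodes a linker histone, and its TE fell through the RNA side. Input rose from 90.7 and 94.6 TPM to 232 and 197 TPM, whereas Ribo-seq stood at 1867 and 1857 TPM with control siRNA and 1517 and 1697 TPM with ADAR1 siRNA. The RNA of both ADAR1 siRNA replicates was more than any control, and the footprints were somewhat below the controls without overlap. The log2 TE change was -1.29 ± 0.16 (edgeR adjusted p = 0.0447), with 1.19 in RNA (edgeR adjusted p = 0.0346) and -0.10 in footprints. Replication-dependent histone transcripts lack a poly(A) tail, and the labels used here do not say whether Input was selected on it. H1-2 was the only called member of this RNA-led kind.

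TRAF6 (chr11:36483769-36510272), a ubiquitin ligase of the interleukin-1 and Toll-like receptor pathways, fell mainly through the footprint side. Its Ribo-seq levels were 28.4 and 26.8 TPM with control and 8.51 and 12.6 TPM with ADAR1 siRNA, with Input at 8.14 and 8.002 TPM against 10.96 and 10.2 TPM. Both ADAR1 siRNA footprint levels lay below both controls, and footprints passed their own test (edgeR adjusted p = 0.0293). The Ribo-seq counts of TRAF6 were fractional, at 519.8 and 417.8 with control siRNA and 234.9 and 316.4 with ADAR1 siRNA. Its Input counts were whole numbers, and whether its footprint reads were shared with another gene was not tested. The log2 TE change was -1.45 ± 0.20 (edgeR adjusted p = 0.0456), made up of 0.33 in RNA and -1.12 in footprints.

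GTF2H2C_2, a near-identical copy of a gene for a subunit of the transcription factor TFIIH, had a fitted fall of log2 -11.87 (edgeR adjusted p = 0.00567) that is uncertain, since the 2 copies share reads. Its Ribo-seq counts were 167 and 295 with control siRNA and 0.240 and 0.0300 with ADAR1 siRNA, while its Input counts were 530 to 699. GTF2H2C_2 thus met the count minimum in Ribo-seq only through its controls, the group where it was high. It stays in the counts of called members. Over the same Ribo-seq libraries its copy GTF2H2C held 296 and 96.8 counts with control siRNA and 636 and 434 with ADAR1 siRNA. For the sum of these copies and the related GTF2H2 the log2 TE change was -0.23, and the fall of the single copy was not seen in the sum.

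The named genes below the threshold are given as values. The 9 members with a higher TE that followed TMEM132A by p all had an adjusted p of 0.0534 and log2 TE changes of 0.90 to 1.40. Several encode proteins of the secretory pathway or the cell surface. SDF4, a calcium-binding protein of the Golgi lumen, had a deposited TE of 0.483 and 0.435 with control siRNA and 0.753 and 0.924 with ADAR1 siRNA. MBTPS1, the Golgi protease that cleaves the sterol regulator SREBP, had 0.0529 and 0.0368 against 0.0998 and 0.0994. The groups overlapped in neither gene, which the rule that named them required. L1CAM, a cell adhesion molecule, reached its log2 TE change of 1.09 ± 0.17 mainly through RNA, which fell from 31.2 and 32.4 TPM to 16.7 and 16.4 TPM (log2 -0.96, edgeR adjusted p = 0.0346) while footprints were 11.1 and 9.82 TPM against 9.85 and 11.2 TPM. The footprint groups of L1CAM overlapped in TPM but not in log2 CPM, where it counts among the opposite moves below, and its RNA groups overlapped on neither scale. TNFRSF21, a death-domain receptor, had more of both: Input was 163 and 168 TPM against 221 and 212 TPM, and footprints rose from 27.5 and 25.95 TPM to 59.9 and 71.9 TPM (edgeR adjusted p = 0.00751). The footprints of SRF, the serum response transcription factor, also rose (log2 0.86, edgeR adjusted p = 0.0460), with a deposited TE of 0.0588 and 0.0771 against 0.140 and 0.135. The other 4 were CSNK1G2, P4HTM, SEMA4B and DVL3, an adaptor of Wnt signalling.

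The 6 members with a lower TE that followed the 4 called ones also had an adjusted p of 0.0534, with log2 TE changes of -0.96 to -1.56. The group held TRMT5, a tRNA methyltransferase, DDX1, an RNA helicase, NDUFS1, a subunit of respiratory complex I, NOP58, a core protein of box C/D small nucleolar particles, NFXL1, and HSPD1, the mitochondrial chaperonin. HSPD1 Ribo-seq levels were 116 and 159 TPM with control siRNA and 55.2 and 77.1 TPM with ADAR1 siRNA, at Input levels of 665 and 665 TPM against 821 and 766 TPM. Its footprints fell (log2 -0.97, edgeR adjusted p = 0.0354). NDUFS1 footprints fell from 25.6 and 36.5 TPM to 10.97 and 13.7 TPM (log2 -1.24, edgeR adjusted p = 0.0239), and its Input levels of 66.6 to 86.9 TPM overlapped between groups. In all 6 genes footprints passed the Ribo-seq test with adjusted p of 0.0239 to 0.0429, and RNA did not pass the Input test.

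**Figure D2:**
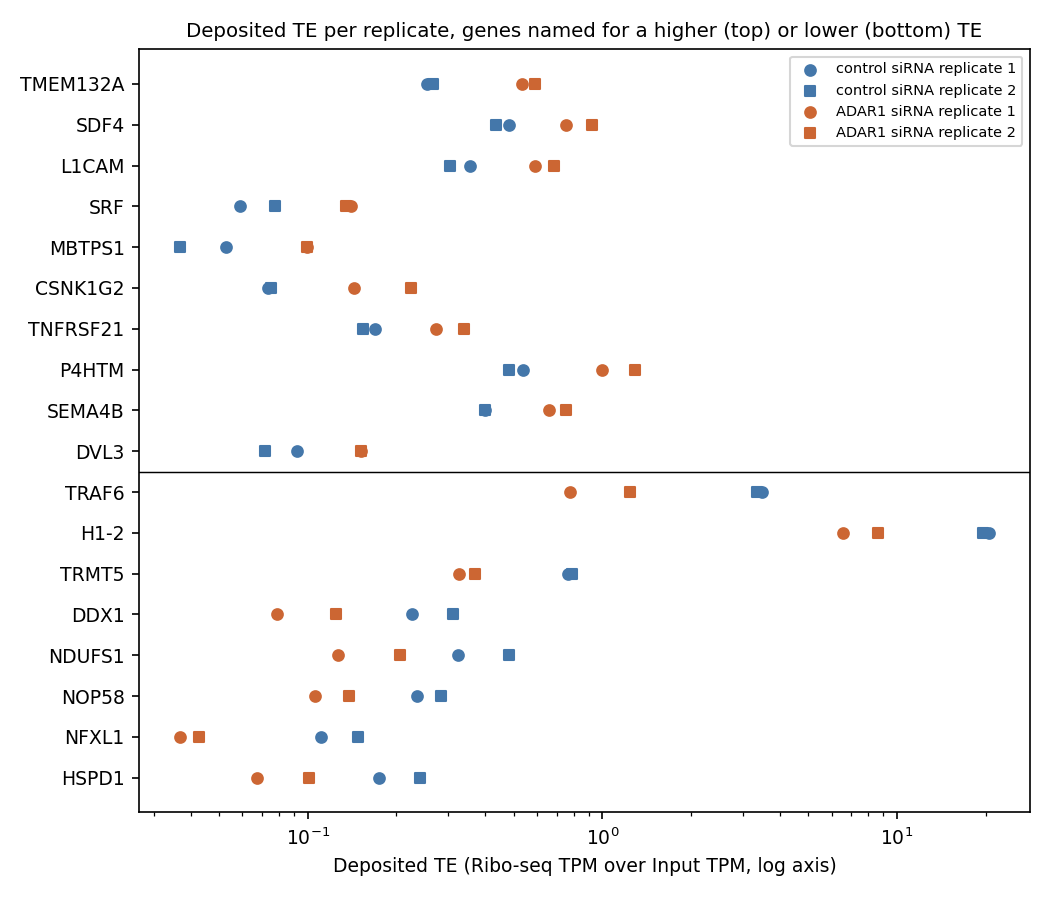
Deposited TE (Ribo-seq TPM over Input TPM, log axis) in each replicate for the 10 genes named for a higher TE (above the line) and 8 genes named for a lower TE (below it), without GTF2H2C_2. Blue is control siRNA and orange ADAR1 siRNA; by the rule that chose them no group overlaps, and the position of a gene along the axis compares its own replicates, not genes with each other.

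Deposited TE levels should be compared within a gene only. The transcript length implied by counts and TPM had a rank correlation of 0.989 (Input) and 0.991 (Ribo-seq) between the 2 control libraries of an assay. Between Input and Ribo-seq of control replicate 1 it was 0.640. The deposited ratio thus carries a length factor that differs between genes. Whether this factor cancels fully within a gene between siRNAs was not tested. Between siRNAs, the deposited TE of both ADAR1 siRNA replicates lay above both controls in 2425 members (24.9%) and below both in 3057 (31.4%). On that scale the median log2 change was -0.06, a shift of more than 0.1 from the 0.07 of the count model. The ratios were used as deposited, and the cause of the shift was not tested.

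Many members moved in opposite directions in RNA and footprints without overlap between siRNAs in either assay. RNA was higher and footprints lower in 746 members (7.66%), and RNA was lower and footprints higher in 837 (8.6%). By comparison, 1096 members had both higher and 920 both lower without overlap. With an unadjusted edgeR p under 0.05 demanded in each assay, 125 and 139 moved in opposite directions, and 285 and 252 in the same direction up and down. RNA and footprint changes enter the TE change itself, so these counts describe how the change is made up and are no further test of it.

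Among members with RNA up and footprints down, the median RNA change was 0.17 and the median footprint change -0.37. The 5 with the largest smaller side were TGDS, a sugar nucleotide dehydratase, the zinc finger genes ZNF549, ZNF627 and ZNF670, and XRCC4, a protein of DNA end joining. XRCC4 stood at 32.9 and 32.1 TPM in control Input and 51.1 and 47.7 TPM in ADAR1 siRNA Input, and at 23.0 and 22.5 TPM in control Ribo-seq and 12.6 and 19.1 TPM in ADAR1 siRNA Ribo-seq. Its log2 change was 0.55 in RNA and -0.43 in footprints, which gave -0.98 ± 0.22 in TE (edgeR adjusted p = 0.0570). TGDS had log2 changes of 0.58 and -0.51, and ZNF627 of 0.69 and -0.46. For these 3 genes, replicate 1 of the ADAR1 siRNA had both the highest RNA and the lowest footprints. Symbols beginning with ZNF and similar zinc finger names made up 37 of the 746 members (4.96%), 11 of the 837 with the reverse pattern (1.31%) and 268 of all 9737 (2.75%).

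Among members with RNA down and footprints up, the median changes were -0.25 and 0.37. The 5 with the largest smaller side were SPINT1, an inhibitor of serine proteases at the cell surface, FAM43A, P4HTM, a prolyl hydroxylase of the endoplasmic reticulum membrane, LRP5, a co-receptor of Wnt ligands, and INHBB, a subunit of activins and inhibins. SPINT1 stood at 3.92 and 4.80 TPM in control Input and 2.43 and 2.47 TPM in ADAR1 siRNA Input, and at 2.60 and 3.11 TPM in control Ribo-seq and 4.63 and 4.42 TPM in ADAR1 siRNA Ribo-seq. Its deposited TE went from 0.662 and 0.648 to 1.91 and 1.79, and its log2 TE change was 1.65 ± 0.31 (edgeR adjusted p = 0.0534). LRP5 RNA was 89.0 and 89.4 TPM against 69.0 and 51.1 TPM, with footprints of 23.6 and 21.1 TPM against 34.3 and 27.4 TPM. SPINT1 met the count minimum of 50 in Input only through its controls (63 and 85 estimated counts against 40 and 44). FAM43A (48 and 43 against 73 and 112) and INHBB (43 and 45 against 91 and 76) met it in Ribo-seq only through the ADAR1 siRNA libraries, so these 3 genes entered through the group where they were high. In all, 1 siRNA group had a mean under 50 in 45 of the 837 members with this pattern, in 4 of the 746 with the reverse pattern and in 334 of all members. None of the 10 genes passed the TE test on its own. TMEM132A, called above, belongs to this pattern. TRAF6 and H1-2, also called above, belong to the reverse pattern of RNA up and footprints down.

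**Figure D3:**
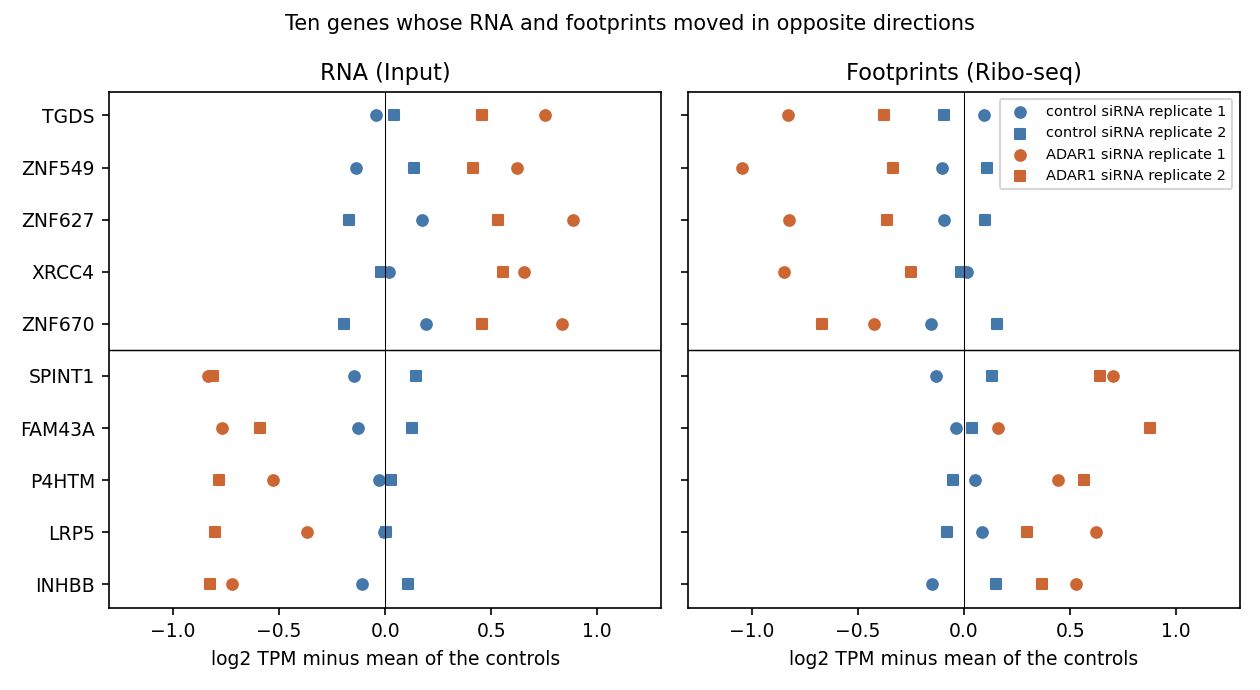
Log2 TPM minus the mean of the 2 controls in Input (left) and Ribo-seq (right) for the 5 members with the largest smaller side in each direction of opposite movement, 1 point per library. ADAR1 siRNA (orange) lies right of control (blue) in RNA and left in footprints for the upper 5 genes, and the reverse for the lower 5.

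The lists of surface receptors, matrix proteins, folding enzymes, lysosomal proteins and translocation genes lay above the median of all members. Some other groups of the secretory pathway did not, as given in the last section. The 33 integrins and surface receptors, which link cells to matrix and carry growth signals, had a median log2 TE change of 0.64, with all 33 above 0. No single receptor passed edgeR after adjustment, 28 were higher and 0 lower at unadjusted p under 0.05, and DESeq2 called 19 and limma-voom 13 higher. The median was 0.67 in replicate 1 and 0.60 in replicate 2 of the ADAR1 siRNA, and it was made up of -0.11 in RNA and 0.58 in footprints. PLXND1, a semaphorin receptor, had a deposited TE of 0.121 and 0.123 with control siRNA and 0.199 and 0.262 with ADAR1 siRNA. NOTCH1 had 0.287 and 0.293 against 0.450 and 0.482. The log2 TE changes of PLXND1, NOTCH1 and LRP5 were 1.04, 0.82 and 1.16, and the smallest in the list were 0.26 for CD44 and TFRC.

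The 28 collagens and matrix proteins had a median log2 TE change of 0.63, with 27 above 0. In the edgeR test 0 passed after adjustment, 21 were higher and 0 lower without it, and DESeq2 called 13 and limma-voom 11 higher. COL6A2, a chain of collagen VI, went from 0.431 and 0.417 to 0.817 and 0.747 in deposited TE (log2 1.01 ± 0.18). AGRN, a basement membrane proteoglycan, and COL18A1 each had a log2 TE change of 1.03. COL1A1, at -0.49, was the only member of the list below 0.

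The 26 chaperones and folding enzymes of the endoplasmic reticulum had a median of 0.56 and all lay above 0. The 27 lysosomal hydrolases and membrane proteins had a median of 0.54, with 26 above 0. By edgeR 0 passed after adjustment in either list, and 17 and 19 were higher and 0 lower without it. DESeq2 called 12 and 10 higher, and limma-voom 5 and 7. Median RNA changes were 0.03 and 0.00, and median footprint changes 0.54 and 0.49. CALR, a lectin chaperone, had a deposited TE of 1.63 and 1.51 with control siRNA and 2.23 and 2.43 with ADAR1 siRNA, and CTSD, a lysosomal protease, had 0.915 and 1.06 against 1.52 and 1.52. In both genes the groups did not overlap. Of the 30 genes for translocation into the endoplasmic reticulum, the median was 0.25, and 8 were higher and 3 lower at unadjusted p under 0.05. The 3 lower ones were SRP54, SRP68 and SRP72, cytosolic proteins of the signal recognition particle, with log2 TE changes of -0.99, -0.81 and -0.52. None passed edgeR after adjustment, and DESeq2 called 1 of the 30 higher and 3 lower.

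**Figure D4:**
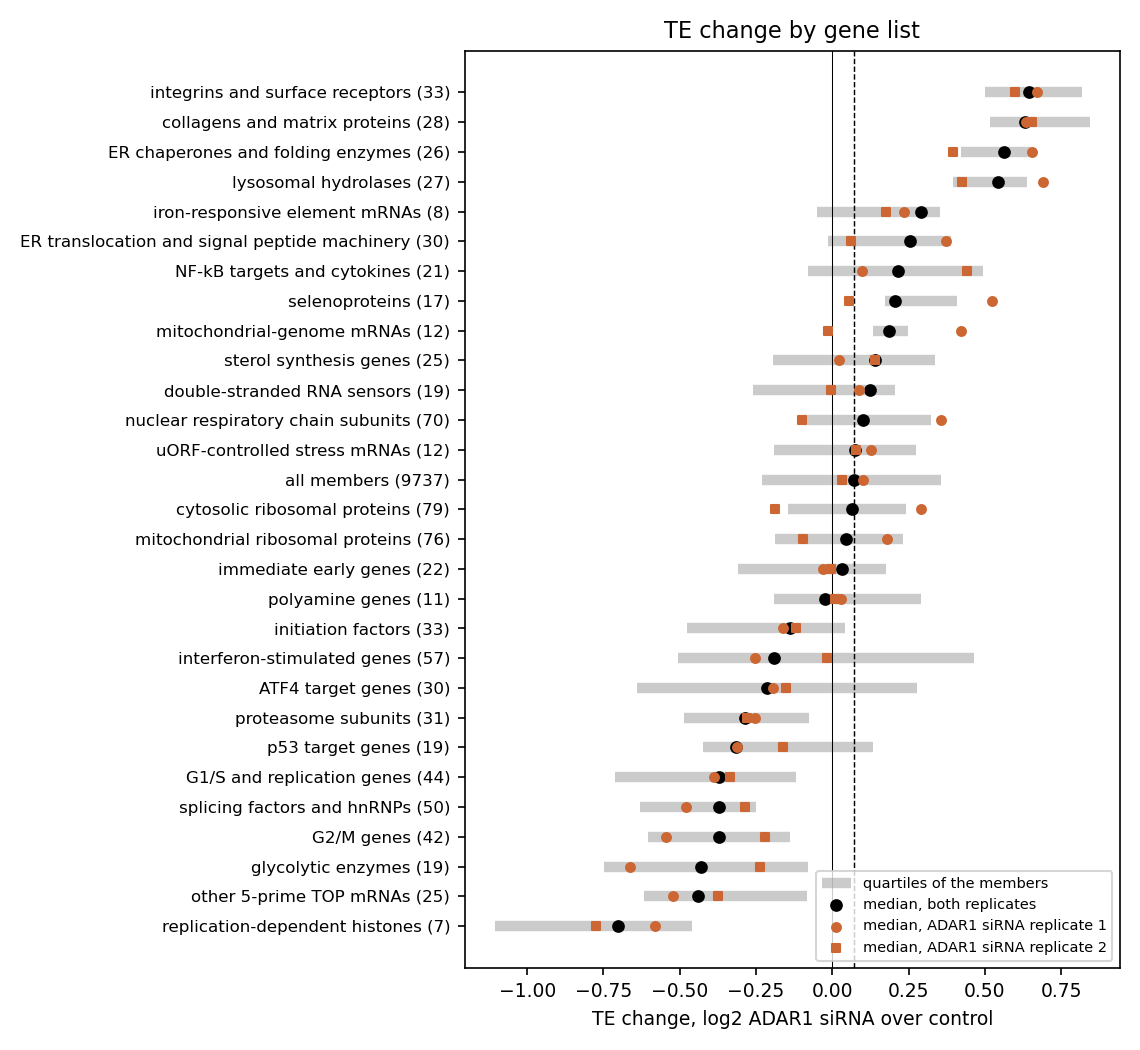
Median log2 TE change of each gene list with at least 7 members (number of members in brackets), with the quartiles of its members as bars and the medians of each ADAR1 siRNA replicate against the mean of the controls as orange symbols. The dashed line is the median of all members at 0.07; receptors, matrix, folding and lysosomal lists lie right of it in both replicates, and splicing, cell cycle, glycolytic and histone lists lie left of it in both.

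Several lists of cytosolic and nuclear proteins lay below the median of all members, whereas the 79 cytosolic ribosomal proteins lay close to it, at 0.06. The 50 splicing factors and heterogeneous nuclear ribonucleoproteins had a median log2 TE change of -0.37, with 41 below 0. By edgeR 0 passed after adjustment, 24 were lower and 0 higher without it, and DESeq2 called 17 and limma-voom 13 lower. HNRNPK, an RNA-binding protein, had a deposited TE of 0.343 and 0.391 with control siRNA and 0.162 and 0.232 with ADAR1 siRNA. DDX5, an RNA helicase, had 0.167 and 0.252 against 0.0740 and 0.124. Footprints made up both changes, with RNA changes of -0.06 and 0.01.

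The 44 genes of the G1/S transition and DNA replication and the 42 genes of G2 and mitosis each had a median log2 TE change of -0.37. Without adjustment 20 and 16 were lower and 1 and 3 higher. After adjustment 0 passed edgeR in either list, and DESeq2 called 11 and 9 lower and 1 and 2 higher. CDC6, which loads the replicative helicase, had a log2 TE change of -1.10 ± 0.21, MCM4, a subunit of that helicase, -0.9996 ± 0.23, and KIF11, a mitotic kinesin, -0.99 ± 0.18. KIF11 deposited TE was 0.160 and 0.179 with control siRNA and 0.0604 and 0.0979 with ADAR1 siRNA, without overlap. CDC25B, a phosphatase that activates mitotic kinases, went the other way, with a log2 TE change of 0.64.

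Glycolytic enzymes (19 members) had a median of -0.43, with 9 lower and 2 higher without adjustment, and proteasome subunits (31) a median of -0.29, with 12 lower and 0 higher. By edgeR 0 of either list passed, and DESeq2 called 8 and 8 lower and 2 and 0 higher. PKM, the enzyme of the last glycolytic step, had a log2 TE change of -0.84 ± 0.24, and SLC16A3, a lactate exporter of the plasma membrane, 0.69 ± 0.19. Of the 59 replication-dependent histones listed, all in the table, only 7 met the count minimum, and the others are not described. These 7 had the lowest median of the lists, -0.70, and all lay below 0. Their median RNA change was 0.84 and their median footprint change -0.01. H2AC18 and H2AC19 are copies with the same values in the table and were counted as 2 members. H1-2 alone passed edgeR, and DESeq2 called 5 of the 7.

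The translation machinery did not move as a block. Ribosomal proteins and other transcripts with a terminal oligopyrimidine (TOP) tract, a run of pyrimidines at the 5′ end through which the mTOR pathway controls their translation, are shown with the first 24 transcribed bases of their RefSeq start (GRCh38.p14). They are the 5 of smallest TE p in each list among those whose start holds the run, and capitals mark the run. The start used in these cells may differ.
NPM1, chr5:171387849-171387872, plus strand: CTTTCCCTggtgtgattccgtcct
EEF1A1, chr6:73521009-73521032, minus strand: CTTTTTCgcaacgggtttgccgcc
EIF4B, chr12:53006456-53006479, plus strand: CTTTTgcgttctctttccctctcc
IPO7, chr11:9384652-9384675, plus strand: CCTTTCgcgccggttgccgctgcg
NAP1L1, chr12:76084662-76084685, minus strand: CTTTTTTagcgccatctgctcgcg
RPSA, chr3:39406720-39406743, plus strand: CTTTTCCgtgctacctgcagaggg
FAU, chr11:65122111-65122134, minus strand: CTCTTTCTCgactccatcttcgcg
RPLP2, chr11:809967-809990, plus strand: CCTTTTCCTCCCTgtcgccaccga
RPS19, chr19:41860255-41860278, plus strand: CCCTTTCCCCTggctggcagcgcg
RPL12, chr9:127451383-127451406, minus strand: CCTCTCggctttcggctcggagga

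The 25 TOP transcripts other than ribosomal proteins had a median log2 TE change of -0.44, with 16 lower and 2 higher at unadjusted p under 0.05. After adjustment 0 passed edgeR, and DESeq2 called 11 lower and 1 higher. EEF1A1, the elongation factor that brings tRNA to the ribosome, had a deposited TE of 0.767 and 0.868 with control siRNA and 0.334 and 0.505 with ADAR1 siRNA (log2 -0.84 ± 0.21, edgeR adjusted p = 0.0613). NPM1, a nucleolar chaperone, had a log2 TE change of -0.76 ± 0.18, and EIF4B, a cofactor of the initiation helicase, -0.81. The 79 cytosolic ribosomal proteins, of which 63 had a matched start and 43 of those the run, had a median of 0.06, with 6 higher and 7 lower. Their median was 0.29 in ADAR1 siRNA replicate 1 and -0.19 in replicate 2, so the replicates disagreed in sign. RPSA and FAU, both of the small subunit, stood at -0.70 and 0.57.

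A start run, defined as a C at the first base followed by at least 4 further C or T and read on the transcribed strand only, was found in 1429 of 35116 RefSeq starts (4.07%) and in 468 of the 8130 members with a matched start (5.76%). Members with the run had a median log2 TE change of 0.04 and members without it 0.07. With the run and at unadjusted p under 0.05, 15.2% were higher and 16.03% lower, and without it 14.9% and 11.97%. The 15 other TOP transcripts with the run had a median of -0.44, and the 43 ribosomal proteins with the run 0.04. Transcripts with the run were found at both signs of the TE change.

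Of the 33 genes listed as initiation factors, 10 were lower and 0 higher at unadjusted p under 0.05, with a median log2 TE change of -0.14. By edgeR 0 passed after adjustment, and DESeq2 called 7 lower. The 3 of smallest p were EIF2A, at -0.74, EIF2S1, a subunit of eIF2, at -0.69, and EIF3D, a subunit of eIF3, at -0.79. This list also held the eIF4E-binding proteins EIF4EBP1 and EIF4EBP2, at 0.24 and 0.22. It left out EIF4B, EIF4A2, EIF2S3, EIF3E, EIF3F and EIF3H, which were in the TOP list at -0.81 to -0.19. Of 12 transcripts known to escape eIF2 phosphorylation through upstream reading frames, 1 was higher and 1 lower, with a median of 0.08. PPP1R15A, the phosphatase subunit that reverses that phosphorylation, had a log2 TE change of 0.59 ± 0.18 (edgeR adjusted p = 0.0992), DDIT3 0.70 ± 0.32 and EPRS1, a tRNA synthetase, -0.68 ± 0.23. The 30 target genes of ATF4 had a median of -0.21, with 5 higher and 9 lower. Among them were NARS1, a tRNA synthetase, at -1.15 ± 0.22, PSAT1, an enzyme of serine synthesis, at -0.74, and VEGFA, a secreted growth factor, at 0.71.

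Genes of the response to double-stranded RNA were split. The 57 interferon-stimulated genes had a median log2 TE change of -0.19, with 13 higher (22.8%) and 13 lower (22.8%) at unadjusted p under 0.05. After adjustment 0 passed edgeR, and DESeq2 called 8 higher and 5 lower. Their median was -0.25 in replicate 1 and -0.02 in replicate 2 of the ADAR1 siRNA. HLA-C, which presents peptides at the surface and whose reads can be shared with other HLA genes, had a deposited TE of 2.96 and 3.11 with control siRNA and 5.45 and 5.31 with ADAR1 siRNA (log2 0.97 ± 0.17). LAP3, a cytosolic peptidase, had 0.531 and 0.602 against 0.233 and 0.365 (log2 -0.81 ± 0.17). The 19 sensors of double-stranded RNA and their adaptors had a median of 0.12, with 2 higher and 1 lower. TICAM1, the adaptor of TLR3, had a log2 TE change of 1.05 ± 0.24 (edgeR adjusted p = 0.0578), and RIGI, a cytosolic sensor, -0.55 ± 0.22. Of 21 NF-kB targets and cytokines, 4 were higher and 1 lower, with SAA1, a secreted acute-phase protein, at 1.15 ± 0.26.

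Lists of mitochondrial proteins differed between the ADAR1 siRNA replicates. The 70 nuclear subunits of the respiratory chain had a median log2 TE change of 0.36 in replicate 1 and -0.10 in replicate 2, and the 76 mitochondrial ribosomal proteins 0.18 and -0.10. The 12 messages of the mitochondrial genome, which are translated inside the organelle, had 0.42 and -0.01. A difference of this kind followed transcript length. In the quintile of members with the shortest length implied by the Ribo-seq counts and TPM, the median was 0.31 in replicate 1 and -0.02 in replicate 2, and in the longest quintile it was -0.05 and 0.11. Control replicate 2 minus replicate 1 was -0.08 in the shortest quintile and -0.03 in the longest. The part of length in the list values was not tested.

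The GC content of the first 50 transcribed bases also ordered the TE changes, and here the replicates did not differ in direction in the 2 richest quintiles. From the poorest to the richest quintile of the 8130 members with a matched start, the median log2 TE change was -0.03, -0.05, 0.02, 0.10 and 0.26. RNA medians went from 0.05 to -0.08 and footprint medians from 0.03 to 0.17. In the richest quintile, with 76% GC or more, 27.4% of members were higher and 5.04% lower at unadjusted p under 0.05, against 10.8% and 16.2% in the poorest quintile. In replicate 1 the richest quintile had a median of 0.34 and in replicate 2 of 0.20. Both the poorest and the richest quintile held members of either sign, and this is a description across genes, which are not independent replicates.

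**Figure D5:**
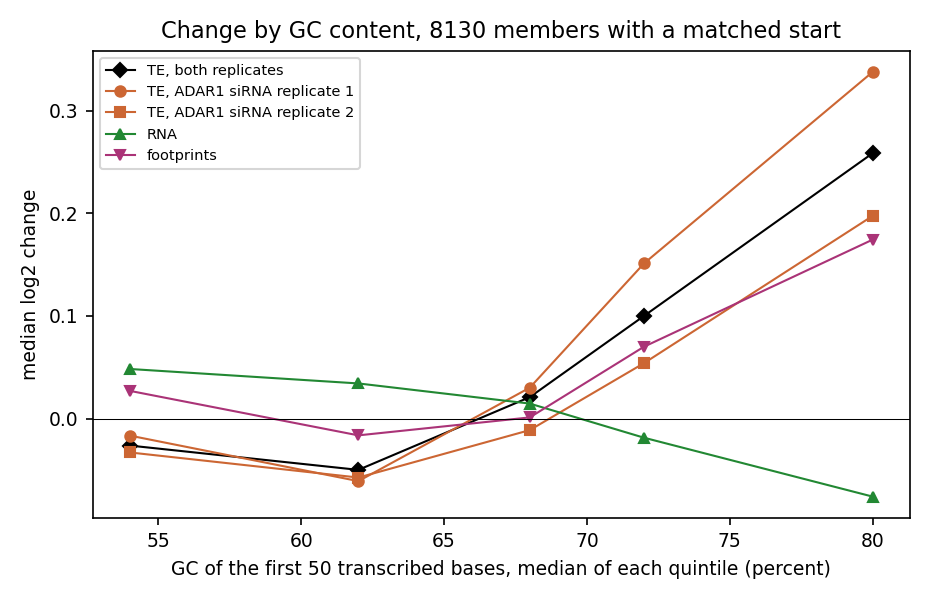
Median log2 change of TE, RNA and footprints in quintiles of 8130 members by GC content of the first 50 transcribed bases (x axis, median of each quintile in percent). TE is shown for both ADAR1 siRNA replicates together and each apart; the richest quintile lies highest in TE and footprints and lowest in RNA.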

How the data were processed

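The authors deposited 1 table for the series with an estimated count, a TPM value and a TE ratio per gene and library. Estimated counts were deposited without normalization, and 87.0% to 90.1% of them per library were whole numbers (equal to their rounded value, with a tolerance of 0). TPM is the authors' deposited level per transcript length and library. The deposited ratio equalled the Ribo-seq TPM over the Input TPM of the same siRNA and replicate number, to within a relative difference of 0.00204. Per the submitters' processing notes, featureCounts, STAR, Bowtie2 and cutadapt were used with GRCh38. Their order and settings, the strand setting and the handling of reads shared by several genes are not given in these sources.

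Counts were rounded and fitted with edgeR 4.0.16 in R 4.3.3 (TMM over 8 libraries, filterByExpr, 12953 genes). TE was tested as the interaction of assay and siRNA, two-sided, without a replicate block, with Benjamini-Hochberg adjustment over all genes fitted and a threshold of 0.05. RNA and footprint p-values came from separate fits of each assay, and log2 values without a p of their own are contrasts of the 8-library fit. The SE is the size of the log2 change over the square root of F. Medians per ADAR1 siRNA replicate are against the mean of both controls. Opposite moves were counted on log2 CPM (prior count 2) where the 2 ADAR1 siRNA libraries lay outside the 2 controls in both assays. For a single gene, the smallest two-sided p of an exact permutation with 2 libraries a group is 0.333. DESeq2 1.42.0 and limma 3.58.1 were alternatives. The test was tried on simulated counts first.

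Named genes are ADAR, 10 higher and 10 lower in TE (called first, then by smallest p, with deposited TE of the siRNA groups not overlapping), the 5 opposite moves per direction with the largest smaller side, called RNA-led members, and the 3 of smallest p per list. The members and gene lists were chosen with earlier results of these data known. Gene numbers were matched to RefSeq symbols (19669 of 19892) and coordinates are GRCh38.p14. Protein features were planned but not computed, since protein sequences were not used here; start sequences were used instead, for 8130 members (83.5%). Results of some named genes were left out of the text but stay in all counts.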

Additional observations from a re-analysis of the deposited data

How the results depend on the processing

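The number of members called depended on the processing. For members higher and lower, against 1 and 4, DESeq2 called 484 and 490, limma-voom with quality weights 328 and 312, the fit without a filter on low counts 406 and 399, the fit of members alone 0 and 2 (1209 and 1332 at unadjusted p under 0.05), robust dispersion 88 and 42, and limma on the deposited TE ratios 31 and 14. An adjusted p under 0.10, a threshold chosen after seeing the data, gave 623 and 494. Other scalings (upper quartile, TMM within assay) gave 1 and 4. Leaving out libraries gave 0 to 1291 higher and 0 to 1793 lower. A lone library was then assumed to vary like the other groups. The cause was not tested.

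A replicate block of siRNA and replicate number gave 639 and 481 calls, and a replicate block of number alone 234 and 200. The labels give the groups the same numbers but do not say what a number shares, and deviations of same-numbered libraries correlated at 0.01 (control, Input against Ribo-seq), 0.42 (ADAR1 siRNA, Input against Ribo-seq), 0.03 (Input, control against ADAR1 siRNA) and 0.17 (Ribo-seq, control against ADAR1 siRNA). The block changed no direction of a named gene. Since every group holds both replicate numbers, a block can alter the estimated changes little, so this is no check of the directions.

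Members with RNA up and footprints down numbered 125 with unadjusted p under 0.05 in both assays, and RNA down and footprints up 139, against 746 and 837. Leaving out libraries gave 894 to 1525 and 988 to 2157, where fewer libraries make overlap rarer by construction. Deposited TPM gave 896 and 563.

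Of 119 named genes, ADAR and KDR changed sign. ADAR was at -0.10 on the deposited ratios and ran from -1.155 to 0.938 over the fits without a library, at -0.26 without ADAR1 siRNA Input replicate 1, -1.16 without ADAR1 siRNA Ribo-seq replicate 2 and -0.58 without both assays of ADAR1 siRNA replicate 2. KDR ran from -0.043 (without ADAR1 siRNA Input replicate 1) to 0.705 (without its replicate 2). List medians were recomputed under 17 settings. The median of all members, 0.07, ran from -0.06 to 0.10 and changed sign in 4 of them: on the deposited ratios, without control siRNA Input replicate 2, without ADAR1 siRNA Input replicate 1 and without both assays of ADAR1 siRNA replicate 2. Those of receptors, matrix, folding, lysosomal, TOP, splicing, cell cycle, glycolytic, proteasome, histone, initiation factor, ATF4 and interferon lists kept their sign in all 17; the sign of ribosomal proteins changed in 7, mitochondrial ribosomal proteins in 8, sensors of double-stranded RNA in 9 and NF-kB targets in 2. Without ADAR1 siRNA Input replicate 1 the median of matrix genes went from 0.63 to 0.41 and that of lysosomal genes from 0.54 to 0.33. With replicate 1 of the ADAR1 siRNA Ribo-seq left out, the median went from -0.37 to -0.19 for G2 and mitosis, from -0.43 to -0.20 for glycolysis and from 0.25 to 0.05 for translocation. The interferon median was -0.02 without both assays of ADAR1 siRNA replicate 1. Each group held 2 libraries, which limits the precision of every test.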

Other observations

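Groups of members that share a symbol stem, chosen after their values were seen, stood apart from the median log2 TE change of 0.07 over all members. Among 64 stems with at least 15 members, the lowest medians were those of the helicase stems DHX (15 members, -0.55) and DDX (33, -0.53), followed by the nucleoporin stem NUP (21, -0.46). At unadjusted p under 0.05, 20 of the 33 DDX members were lower and 0 higher, and 14 of the 21 NUP members were lower and 2 higher. DDX3X, a helicase that aids the scanning of structured leaders, had a log2 TE change of -0.89, DDX46 of -0.95 and NUP107, a scaffold protein of the nuclear pore, of -0.85. Their adjusted p by edgeR ran from 0.0552 to 0.0567, so none passed. RNA medians of the 3 stems lay between -0.03 and 0.04.

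The highest medians were those of ZDHHC (15 members, 0.46), the palmitoyltransferases of cell membranes, CD (28, 0.41), the surface antigens, and SLC (169, 0.35), the solute carriers. Of the SLC members 57 were higher and 4 lower, and of 118 TMEM members, transmembrane proteins with a median of 0.31, 32 were higher and 1 lower. The vesicle traffic stems VPS (33 members, -0.16), SEC (23, -0.09) and TRAPPC (15, -0.02) lay below the median of all members. At unadjusted edgeR p under 0.05, 0, 3 and 0 of them were higher and 6, 6 and 1 lower. Zinc finger genes with the stem ZNF (244 members) had a median TE change of -0.21 at a median RNA change of 0.18.

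Within the interferon-stimulated list some members lay far on either side of 0, and the examples here were chosen after their values were seen. Log2 TE changes were 0.86 for TAP1, 0.75 for IFITM3, 0.53 for BST2, 0.65 for LGALS3BP, 0.55 for UBE2L6, 0.48 for ISG15 and 0.74 for ISG20, and -0.69 for IFIT1, -0.67 for IFIT3, -0.79 for HERC5 and -0.62 for TRIM21. IFITM genes have close copies, so the value of IFITM3 is uncertain. ISG20 met the count minimum in Input only through its controls (108 in each against 47 and 39). None of these 11 passed edgeR after adjustment.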
